A study of Gallus gallus with 8 samples.

Results

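Chicken yolk sac endoderm of embryonic day 4 was set against the same tissue on embryonic day 1, the widest interval of a time course of 4 days. The comparison rested on 4 of the 8 arrays of the series, 2 of day 4 and 2 of day 1, chosen by their labelled stage. The day 4 group and the day 1 group were both made of Gallus gallus endoderm that had been peeled from the yolk sac mesoderm after a short dispase digestion, and the labels give no treatment beyond incubation. Every sample was a pool of tissue collected at intervals through 1 day, so embryos of neighbouring stages were mixed within each, and p-values measure the spread between pools. Total RNA of each pool was hybridised, without an amplification step, to its own Affymetrix Chicken Genome Array.

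The yolk sac endoderm is the epithelium through which an avian embryo feeds. Its cells take up yolk lipoproteins and proteins by endocytosis, break them down in lysosomes, rebuild lipids into new lipoproteins and release them, with serum proteins of their own making, to the vessels that grow in the adjoining mesoderm. On the first day the embryo is a flat disc undergoing gastrulation and the yolk sac is only beginning to spread, whereas by the fourth day the circulation is running and liver functions are still largely met by the yolk sac.

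The deposited MAS5 signals, in arbitrary units, were not on one level. The trimmed mean signal was 76.31 and 83.78 on the day 4 arrays, against 105.5 and 169.8 on the day 1 arrays, with day 1 replicate 2 the brightest of all 8. Beta-actin probe sets gave a 3'/5' ratio of 4.3 and 3.22 on day 4, against 2.91 and 1.5 on day 1, a stronger 3' bias on both day 4 arrays, while GAPDH probe sets gave 1.11 and 1.18 on day 4, against 1.4 and 1.05 on day 1, and overlapped. The part of RNA quality in the results was not tested. Each change is given as a log2 difference of signal + 16, day 4 minus day 1, after quantile normalization, which gives all arrays one distribution of signals, with its SE and an adjusted p from limma. Calls are at an adjusted p under 0.05, the count on the values as deposited stands beside that of a list, and a named gene said to have risen or fallen passed on both scales unless stated otherwise. Because whole tissue was measured, fewer cells of a type and less RNA per cell cannot be told apart.

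Of 23063 probe sets with a mean signal above 9.96, 2446 (10.6%) were higher and 2833 (12.3%) were lower on day 4 than on day 1 after quantile normalization. As deposited, 790 (3.43%) were higher and 6344 (27.5%) lower, and both scales called 787 rises (3.41%) and 2827 falls (12.3%). The 2 day 4 arrays lay above both day 1 arrays, as deposited, in 10.9% of genes and below both in 60.5%, and after quantile normalization in 32.8% and 39%. These shares, and those that follow over genes, are the level against which each count of a gene group is to be read. With the brightest probe set standing for each of 10553 genes, 1377 genes (13%) were higher and 1732 (16.4%) lower, against 487 (4.61%) and 3567 (33.8%) as deposited, and both scales called 484 (4.59%) and 1728 (16.4%). Over all genes the median change was -0.06 on the normalized scale and -0.66 on the deposited one, so a gene at -0.66 on the second scale moved with the bulk. Without day 1 replicate 2 the calls fell to 846 higher and 668 lower probe sets, without day 1 replicate 1 to 1149 and 1128, and without day 4 replicate 1 to 1061 and 917. Without day 4 replicate 2 they stayed at 2251 and 2453. For a list whose count of 5 or more moved by more than 1.5 times in such a fit, the 4 counts stand in the order without day 4 replicate 1, day 4 replicate 2, day 1 replicate 1 and day 1 replicate 2. Counts under 5 moved as well, in some lists to 0.

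The 20 largest rises were led by genes for plasma proteins and for nitrogen metabolism. AFP, for the embryonic plasma protein alpha-fetoprotein, had signals of 10448 and 6191 on the day 4 arrays, against 6.89 and 3.59 on the day 1 arrays. OTC, for the urea cycle enzyme ornithine transcarbamylase, had signals of 1315 and 389.5 on the day 4 arrays, against 1.01 and 1.31 on the day 1 arrays. Both day 1 arrays were thus below the filter signal for these genes, and both day 4 arrays were far above it. The size of such a change depends on the pseudocount of 16, so the values here describe this scale and are no measured fold. The rises came to 8.68 ± 0.23 for AFP (adjusted p = 1.6e-06) and 5.72 ± 0.60 for OTC (adjusted p = 0.00079). ALB, for serum albumin, read 4366 and 565 on the day 4 arrays, against 18.4 and 34.1 on the day 1 arrays, a rise of 5.69 ± 0.76 (adjusted p = 0.002), and its day 4 arrays lay far apart. Plasma proteins among the 20 were also ITIH2, GC, F2, SERPIND1, AGT, APOA4 and RBP, for the riboflavin-binding protein of yolk and plasma, which read 7757 and 6904 on the day 4 arrays, against 454 and 453 on the day 1 arrays.

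The other large rises covered enzymes, a transporter and secreted or membrane proteins of several kinds. CPS1, for the mitochondrial enzyme that feeds ammonia into the urea cycle, read 1916 and 1277 on the day 4 arrays, against 33.6 and 29.1 on the day 1 arrays. BHMT2, for a methyltransferase of homocysteine metabolism, read 3729 and 1261 on the day 4 arrays, against 60.3 and 63.9 on the day 1 arrays. In both genes the day 4 signals lay far above the day 1 signals. PTGDS, for lipocalin-type prostaglandin D synthase, rose by 5.59, ADH1C, for an alcohol dehydrogenase, by 5.08, SLC12A1, which imports sodium and chloride, by 5.11 and CYP4V2, for a fatty acid hydroxylase, by 4.37. RAMP2, for a partner protein of the calcitonin receptor-like receptor, had signals of 678 and 642 on the day 4 arrays, against 9.55 and 34 on the day 1 arrays, a rise of 4.80 ± 0.57 (adjusted p = 0.0013). SPINK5, for a serine protease inhibitor, rose by 4.48 and PRAP1 by 4.40. HBBR, a globin gene, rose by 5.34 ± 0.82 (adjusted p = 0.0036) with signals of 5071 and 2805 on the day 4 arrays, against 328 and 29.7 on the day 1 arrays.

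The 20 largest falls were led by CA2, for carbonic anhydrase, and by developmental regulators. CDX4, a homeobox gene of the posterior embryo, had signals of 10.8 and 21.9 on the day 4 arrays, against 1402 and 2870.2 on the day 1 arrays. BHLHE22, for a basic helix-loop-helix factor, read 7.78 and 8.89 on the day 4 arrays, against 720.5 and 1278 on the day 1 arrays. Both genes were high on both day 1 arrays and near or below the filter signal on both day 4 arrays, and they fell by 5.57 on the log2 scale for CDX4 (SE 0.35, adjusted p = 8.1e-05) and by 4.87 for BHLHE22 (SE 0.31, adjusted p = 8.1e-05). MYC, for a transcription factor of growth and proliferation, read 17.1 and 15.2 on the day 4 arrays, against 792 and 1070.2 on the day 1 arrays, and ID1, a target of BMP signalling, read 27.9 and 55.6 on the day 4 arrays, against 960.3 and 2040.1 on the day 1 arrays. HHEX, GATA5, MSX2 and LMO2, for transcriptional regulators, changed by -5.45, -4.35, -4.03 and -5.40. Secreted or surface proteins were CFC1, a co-receptor of Nodal, the chemokine CXCL12, the matrix protein TGFBI, OLFM1, AGRP, the lectin CLEC19A and the egg-type protease ASTL, with changes between -5.30 for CFC1 and -3.82 for AGRP. CDH2, for N-cadherin, changed by -3.98, TNNT2, for cardiac troponin T, by -3.90, SH3BGR by -4.10 and SLC35F1 by -3.80.

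Of these 40 genes, 8 lost their call without day 1 replicate 1, 11 without day 1 replicate 2, 9 without day 4 replicate 1 and 2 without day 4 replicate 2, and none turned its direction. By day 2 the 20 rises had made a median of 79.2% of their log2 change as deposited, and 17 of them more than 50%. The 20 falls had made a median of 71.7%, with 17 above 50%. In 11 of the 20 falls the day 2 arrays lay more than 2 log2 units apart, in each case with replicate 1 the higher. LMO2, for example, read 1259 and 57.8 on the day 2 arrays and CA2 read 1982 and 126. Among the rises, 19 of 20 were higher on day 4 replicate 1 than on replicate 2, SPINK5 being the exception.

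**Figure D1:**
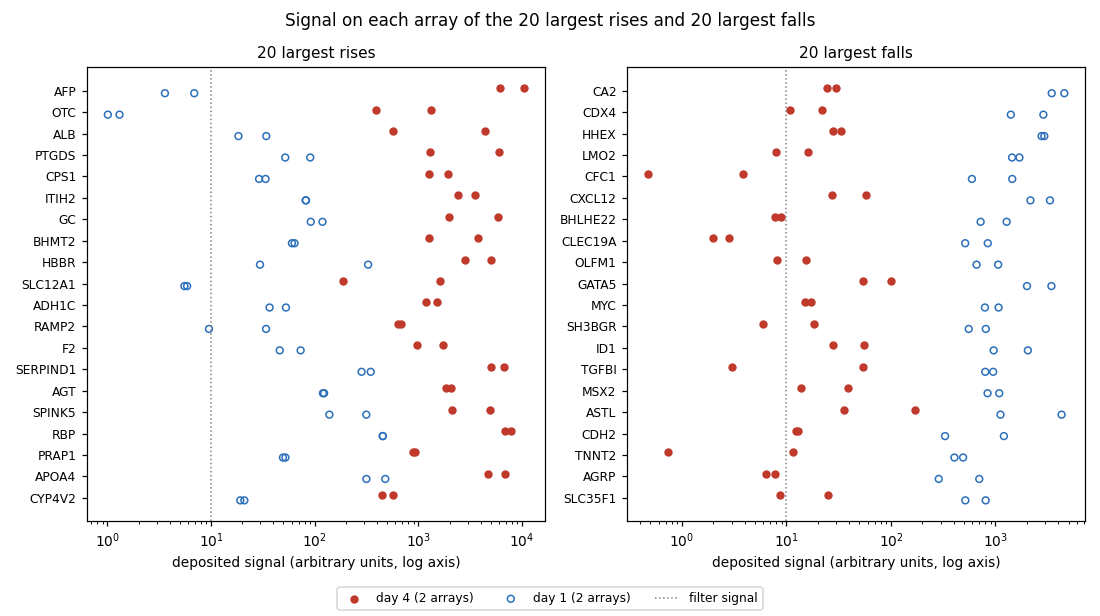
Deposited signal (arbitrary units, log axis) on each of the 4 arrays for the 20 largest rises (left) and the 20 largest falls (right), with filled red circles for the 2 day 4 arrays, open blue circles for the 2 day 1 arrays and a dotted line at the filter signal of 9.96. The days do not overlap for any of the 40 genes, as the rule that chose them required, and AFP and OTC lie below the line on both day 1 arrays.

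Few genes moved from below the filter signal to a high signal. The cuts used here, 9.96 and 100, were set on deposited signals. Their median over probe sets was 12.75 and 11.83 on the day 4 arrays, against 15.6 and 26.04 on the day 1 arrays. Such an offset favours falls over rises in these counts, and its part in them was not tested. Only AFP, OTC, SLC12A1 and LYG2, for a lysozyme of the goose type, were below 9.96 on both day 1 arrays and above 100 on both day 4 arrays. LYG2 read 278 and 251 on the day 4 arrays, against 1.35 and 7.21 on the day 1 arrays. The reverse, above 100 on both day 1 arrays and below 9.96 on both day 4 arrays, held for 41 of 10553 genes. Of the 41, 35 were called lower on both scales. This set, named after its values were seen, held the mesenchymal regulators ZEB1, ZEB2 and SNAI2, the endothelial genes KDR and CDH5, the heart and limb factor HAND2, HOXB1, HOXB5 and HOXA6, and NEFM, for a neurofilament. ZEB2 read 1.15 and 6.8 on the day 4 arrays, against 230.0 and 408 on the day 1 arrays, DUSP6, for a phosphatase induced by FGF signalling, read 6.55 and 8.62 on the day 4 arrays, against 328 and 523 on the day 1 arrays, and EDNRB, for an endothelin receptor, read 0.401 and 0.12 on the day 4 arrays, against 171 and 360.5 on the day 1 arrays. SNAI2, CDH5 and EDNRB were called only as deposited (adjusted p = 0.064, 0.068 and 0.13 after quantile normalization).

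Markers of several other tissues were lower on day 4 as summed signals. Sums and counts below 9.96 used deposited signals, whose median was lower on both day 4 arrays than on either day 1 array. The summed signal of 20 endothelial markers on the array was 654 and 497 on day 4, against 4389 and 4963 on day 1, a log2 ratio of -3.02, and 9 of the 20 were below 9.96 on day 4, against 3 on day 1. Of 18 measured, 4 were called lower and 2 higher (9 and 0 as deposited). After quantile normalization these shares, 22.2% and 11.1%, stood against 16.4% and 13% over all genes. Cardiac and sarcomere markers summed to 1180 and 2678 on day 4, against 5030 and 7770 on day 1 (log2 ratio -1.73), with 4 of 14 called lower and 0 higher (6 and 0 as deposited). Ectoderm and neural markers summed to 267 and 461 on day 4, against 2802 and 3953 on day 1 (log2 ratio -3.21), with 6 of 12 called lower and 0 higher (9 and 0 as deposited). Mesoderm, mesothelium and smooth muscle markers summed to 9234 and 8403 on day 4, against 10628 and 15180 on day 1, with 14 of 29 below 9.96 on day 4 and 2 on day 1. Their log2 ratio of summed signals was -0.55. The median change of the 25 measured was -0.80 (-1.27 as deposited), against -0.06 (-0.66 as deposited) over all genes. Of the 25, 6 were called lower and 1 higher (15 and 1 as deposited). Without 1 array there were 2, 6, 3 and 1 falls in this list and 1, 1, 0 and 0 falls in the endothelial one. Leukocyte markers summed to 409 and 642 on day 4, against 426 and 676 on day 1, and overlapped between the days. Primitive erythroid markers summed to 24936 and 15242, against 9694 and 6541, with 6 of 13 measured members called higher on day 4 and 2 lower (2, 6, 6 and 5 rises without 1 array, in the order above). As deposited, 6 of the erythroid markers were called higher and 3 lower. CA2 made up a large part of their day 1 sums, with 29.9 and 24.3 on the day 4 arrays, against 4555 and 3450 on the day 1 arrays. The 13 markers that define yolk sac endoderm summed to 51602 and 45826, against 32066 and 35911. AFP and RBP4 were the members below the filter signal on day 1, and RBP4 was below it on day 4 as well. RBP4A, a retinol-binding protein gene outside this list, read 10324 and 10838 on the day 4 arrays, against 7746 and 9937 on the day 1 arrays. The part of other cell types in the falls and in the globin rises was not tested.

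Plasma protein genes of every class listed had more rises than falls. Of 16 measured carriers and other plasma proteins, 12 rose and 0 fell (12 and 1 as deposited), with a median change of 2.72 (2.16 as deposited). LCAT, for the plasma enzyme that esterifies cholesterol, read 4642 and 3566 on the day 4 arrays, against 1055 and 1106 on the day 1 arrays, a rise of 2.36 ± 0.29 (adjusted p = 0.0016). TF, for transferrin, the iron carrier, read 10166 and 10669 on the day 4 arrays, against 2933 and 3916 on the day 1 arrays, a rise of 1.76 ± 0.11 (adjusted p = 8.5e-05). Rises chosen after their values were seen were HPX, for the heme carrier hemopexin, at 2.33, VTN, for vitronectin, at 2.02, A2M, for a protease-trapping macroglobulin, at 3.08, AMBP at 3.50 and FETUB, of the fetuin family, at 4.35. TTR, for the thyroid hormone carrier transthyretin, was bright on both days, at 8891 and 9995 on the day 4 arrays, against 8945 and 9964 on the day 1 arrays (adjusted p = 0.72).

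Coagulation genes rose at several steps of the cascade. Of 24 measured, 15 rose and 0 fell (13 and 1 as deposited), with a median of 1.60 (1.11 as deposited). F2, for prothrombin, read 1746 and 961 on the day 4 arrays, against 46 and 73.2 on the day 1 arrays. PROZ, for protein Z, which helps to inhibit factor X, read 975 and 789.7 on the day 4 arrays, against 93.3 and 134 on the day 1 arrays, and PLG, for the clot-dissolving zymogen plasminogen, read 3806 and 2003 on the day 4 arrays, against 278 and 573 on the day 1 arrays. Chosen after their values were seen, the procoagulant factors F7, F10 and F12 rose by 3.20, 1.79 and 2.34, and the anticoagulants PROC and TFPI by 1.87 and 3.52. The genes of the fibrinogen chains were bright on both days. FGA read 4402 and 2059 on the day 4 arrays, against 477 and 589 on the day 1 arrays, FGG read 8371 and 5156 on the day 4 arrays, against 2635 and 3418 on the day 1 arrays, and FGB read 9146 and 7641 on the day 4 arrays, against 4909 and 7097 on the day 1 arrays, so FGA changed by 3.03, FGG by 1.36 and FGB by 0.60, which passed only after quantile normalization (as deposited, adjusted p = 0.091).

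Complement, serpin and apolipoprotein genes followed with smaller medians. Of 14 complement genes 7 rose and 0 fell (6 and 0 as deposited, median 1.44 and 0.73). Of MASP2 and MBL2, of the lectin pathway, MASP2 read 279 and 264 on the day 4 arrays, against 24.4 and 33.4 on the day 1 arrays, and MBL2 read 312 and 266 on the day 4 arrays, against 72.7 and 94.6 on the day 1 arrays. CFI, for the protease that inactivates complement, was already bright at 7317 and 8502 on the day 4 arrays, against 7143 and 7541 on the day 1 arrays (adjusted p = 0.16). Of 11 serpins, 6 rose and 1 fell (4 and 2 as deposited) with 4, 5, 3 and 3 rises in the fits without 1 array. SERPINA10, for the inhibitor that works with protein Z, rose by 2.61 ± 0.19 (adjusted p = 0.00016), while SERPINE2, for a tissue inhibitor of thrombin and urokinase, read 32.6 and 52.8 on the day 4 arrays, against 377 and 923 on the day 1 arrays, a change of -2.69 ± 0.54 (adjusted p = 0.0096).

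All 10 apolipoprotein-named genes on the array were measured, and 6 rose and 1 fell (4 and 1 as deposited). Of APOA4 and APOA5, of triglyceride-rich particles, APOA4 read 6914 and 4719 on the day 4 arrays, against 315 and 479.5 on the day 1 arrays, and APOA5 read 3521 and 2664 on the day 4 arrays, against 682 and 1187 on the day 1 arrays. APOV1, for the apovitellenin of avian lipoproteins, read 161 and 211 on the day 4 arrays, against 5.08 and 10.5 on the day 1 arrays, a rise of 3.57 ± 0.26 (adjusted p = 0.00013), and APOA2 rose by 1.16 ± 0.14 (adjusted p = 0.0012). APOH (1.81) and APOB (0.47) passed only after quantile normalization. APOA1, the main protein of high-density particles, read 9953 and 10374 on the day 4 arrays, against 8594 and 9613 on the day 1 arrays (adjusted p = 0.13), and APOD and APOOL did not pass on either scale. APOO, whose product sits in mitochondria despite the name, fell, with signals of 301 and 249.9 on the day 4 arrays, against 969.8 and 1446 on the day 1 arrays.

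Genes of amino acid breakdown rose at many steps. Of 54 measured genes of the urea cycle and amino acid breakdown, 26 rose and 2 fell (17 and 7 as deposited), with a median of 0.87 (0.25 as deposited). HPD, an enzyme of tyrosine breakdown, read 2228 and 1994 on the day 4 arrays, against 344 and 496 on the day 1 arrays, a rise of 2.95 ± 0.18 (adjusted p = 7.6e-05). The next enzymes of that route, HGD and FAH, chosen after their values were seen, rose by 3.74 and 1.81. On the kynurenine route of tryptophan, KMO, KYNU and HAAO rose by 2.81, 2.75 and 3.12, and IDO2 by 1.88. These 4 genes were also chosen after their values were seen.

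Both enzymes of creatine synthesis rose. Of the pair, GATM and GAMT, GATM read 5200.2 and 2571 on the day 4 arrays, against 459 and 960.2 on the day 1 arrays, and GAMT read 2647 and 2411 on the day 4 arrays, against 400.5 and 536 on the day 1 arrays. The rises were 2.99 ± 0.28 (adjusted p = 0.00044) and 3.02 ± 0.17 (adjusted p = 6.4e-05), and in both genes every day 4 signal exceeded every day 1 signal. GNMT, which consumes methyl groups on glycine, rose by 3.03, SARDH, which breaks down sarcosine, by 3.37, FTCD, of histidine breakdown, by 3.15 and CDO1, of cysteine breakdown, by 3.61, all 4 chosen after their values were seen.

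The urea cycle itself was uneven. CPS1, OTC and ASS1, for its early steps, all rose, ASS1 with signals of 6809.9 and 4942 on the day 4 arrays, against 795 and 994 on the day 1 arrays. ARG2, for the mitochondrial arginase, went the other way at 53 and 78.6 on the day 4 arrays, against 754 and 1267 on the day 1 arrays, a change of -2.93 ± 0.34 (adjusted p = 0.0011). AGXT2, a member of the list outside the urea cycle, also fell (-0.81). ASL, for the step after ASS1, was called higher only as deposited (1.92 after quantile normalization, adjusted p = 0.085). AGXT2 and ASL were named after their values were seen, as was ARG2. The list held 18, 26, 18 and 17 rises in the fits without 1 array.

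Most genes of fatty acid burning rose after quantile normalization, while those of fatty acid making ran both ways and those of sterol making fell or did not pass. Of 30 measured genes of fatty acid oxidation and ketone bodies, 22 rose and 1 fell, but only 8 and 1 as deposited, with a median of 1.24 (0.60 as deposited). SLC27A2, which takes up and activates very long chains, read 3259 and 1942 on the day 4 arrays, against 488 and 573 on the day 1 arrays. ACADL, for a mitochondrial acyl-CoA dehydrogenase, read 5238 and 5274 on the day 4 arrays, against 2235 and 2603 on the day 1 arrays, and ACAT1, for the last thiolase step, read 7276 and 6587 on the day 4 arrays, against 2771 and 3241 on the day 1 arrays. All 3 genes had both day 4 arrays above both day 1 arrays, and they rose by 2.80, 1.45 and 1.42. CPT1A, the gate of entry into mitochondria, rose by 1.86 and EHHADH, of peroxisomes, by 2.58, both chosen after their values were seen. OXCT1, which commits ketone bodies to use as fuel, was the fall, at -1.97, named after its values were seen. The list held 13, 17, 14 and 11 rises in the fits without 1 array.

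Of 21 genes of fatty acid synthesis, elongation and desaturation, 4 rose and 5 fell, against 0 and 8 as deposited, and none of the rises was called without day 4 replicate 1, day 1 replicate 1 or day 1 replicate 2. The same fits called 4, 3, 3 and 3 falls. ACLY, which makes cytosolic acetyl-CoA, read 178 and 203 on the day 4 arrays, against 916 and 1369 on the day 1 arrays. FASN, for fatty acid synthase, read 222 and 175 on the day 4 arrays, against 674 and 998 on the day 1 arrays. ACLY fell by 1.77 on the log2 scale, FASN by 1.23 and ME1, which supplies NADPH, by 1.92. Of 15 genes of cholesterol synthesis, 4 fell and 0 rose (10 and 0 as deposited), namely FDPS, SQLE, HMGCS1 and HSD17B7, with changes of -2.62, -2.34, -1.50 and -1.56. Leaving out 1 array gave 3, 5, 3 and 2 falls.

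Triglyceride building and yolk uptake leaned upward. Of 21 genes of triglyceride synthesis and storage 9 rose and 1 fell, although 4 rose and 4 fell as deposited. MOGAT1, which acylates monoglycerides as in the gut, read 2075 and 1685 on the day 4 arrays, against 287 and 514 on the day 1 arrays, a rise of 2.89 ± 0.18 (adjusted p = 8.1e-05). SOAT1, which esterifies cholesterol, read 3690.3 and 2916 on the day 4 arrays, against 1399 and 1544 on the day 1 arrays. Both lay above their day 1 signals on both day 4 arrays. Of 17 receptors and adaptors of yolk uptake, 8 rose and 0 fell (5 and 1 as deposited). Of AMN and CUBN, whose products form the cubam receptor, AMN read 2079 and 982 on the day 4 arrays, against 264 and 165 on the day 1 arrays, and CUBN read 4564 and 2729.5 on the day 4 arrays, against 1849.7 and 2058 on the day 1 arrays. The change was 3.36 for AMN and 1.26 for CUBN. In the fits without 1 array the triglyceride list held 6, 11, 7 and 5 rises and the uptake list 6, 7, 7 and 4 rises.

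The fatty acid-binding proteins held both rises and falls. FABP7 read 6455 and 5757 on the day 4 arrays, against 892 and 1369 on the day 1 arrays, and FABP2, the intestinal form, read 1668 and 312 on the day 4 arrays, against 137 and 353 on the day 1 arrays. FABP5, the epidermal form, read 7.96 and 4.32 on the day 4 arrays, against 92.2 and 180.5 on the day 1 arrays, and FABP3, the heart form, read 68.1 and 240.5 on the day 4 arrays, against 600.1 and 829 on the day 1 arrays. FABP7 rose by 2.87 ± 0.14 (adjusted p = 2.8e-05) and FABP2 by 2.38 ± 0.61 after quantile normalization only (as deposited, adjusted p = 0.054), while FABP5 and FABP3 fell. FABP1 and FABP4 did not pass on either scale, and FABP6 fell only as deposited. Each of the fits without day 4 replicate 1 or either day 1 array called 1 rise and 1 fall.

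Sugar metabolism also changed within families. Of 18 genes of gluconeogenesis and glycogen, 8 rose and 1 fell (5 and 2 as deposited). SLC37A4, which carries glucose 6-phosphate into the ER for release as glucose, read 531 and 337 on the day 4 arrays, against 83.1 and 206 on the day 1 arrays, and GYS2, for the liver form of glycogen synthase, read 153 and 127 on the day 4 arrays, against 41.5 and 73.2 on the day 1 arrays. FBP1 was the brightest of the list at 9468 and 8259 on the day 4 arrays, against 2097 and 2814 on the day 1 arrays. Of 20 genes of glycolysis and glucose transport 2 rose and 7 fell (1 and 8 as deposited). SLC2A1, for the glucose transporter GLUT1 of growing cells, read 80.2 and 663 on the day 4 arrays, against 2385 and 4359 on the day 1 arrays. SLC2A2, for the low-affinity transporter GLUT2 of liver and gut, chosen after its values were seen, read 577 and 191 on the day 4 arrays, against 72 and 130.0 on the day 1 arrays. SLC2A1 fell by 3.20 and SLC2A2 rose by 2.38 on the log2 scale. GPI and HK1, for the opening steps of glycolysis, fell as well, by 2.01 for GPI and 3.28 for HK1, which was chosen after its values were seen. Among later enzymes PGAM1, a mutase, fell as well (adjusted p = 0.0045). It read 1752 and 1728 on the day 4 arrays, against 3392 and 5352 on the day 1 arrays. GAPDH, ENO1 and LDHB were bright on all 4 arrays and did not pass (adjusted p = 0.4, 0.65 and 0.15). With 1 array left out there were 6, 6, 2 and 3 falls in glycolysis and 5, 7, 5 and 6 rises in gluconeogenesis.

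Genes of nucleotide synthesis had more falls than rises. Of 30 genes 4 rose and 14 fell (3 and 17 as deposited). Of GART and ATIC, for purine synthesis, GART read 1807 and 1146 on the day 4 arrays, against 322 and 506 on the day 1 arrays, and ATIC read 6472 and 5262 on the day 4 arrays, against 1791 and 2439.9 on the day 1 arrays. These rose by 2.48 and 1.83. IMPDH2, which commits purines to guanine nucleotides, read 381 and 667 on the day 4 arrays, against 1781 and 3078 on the day 1 arrays, and RRM2, which makes deoxynucleotides for replication, read 85.6 and 990.0 on the day 4 arrays, against 2389.5 and 3475 on the day 1 arrays. Both fell, as did TYMS (-1.81), which makes thymidylate. CTPS2 rose (1.92) where its paralog CTPS1 fell (-1.93), CTPS1 and TYMS having been chosen after their values were seen. The fits without 1 array had 7, 14, 7 and 6 falls. In the citrate cycle 4 of 18 genes rose and 3 fell (2 and 5 as deposited), ACO1 and IDH1 among the rises at 1.65 and 2.26 and SUCLA2 and MDH1 among the falls at -2.07 and -0.46. The fits without 1 array had 3, 4, 3 and 3 rises and 0, 2, 1 and 0 falls of that list.

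**Figure D2:**
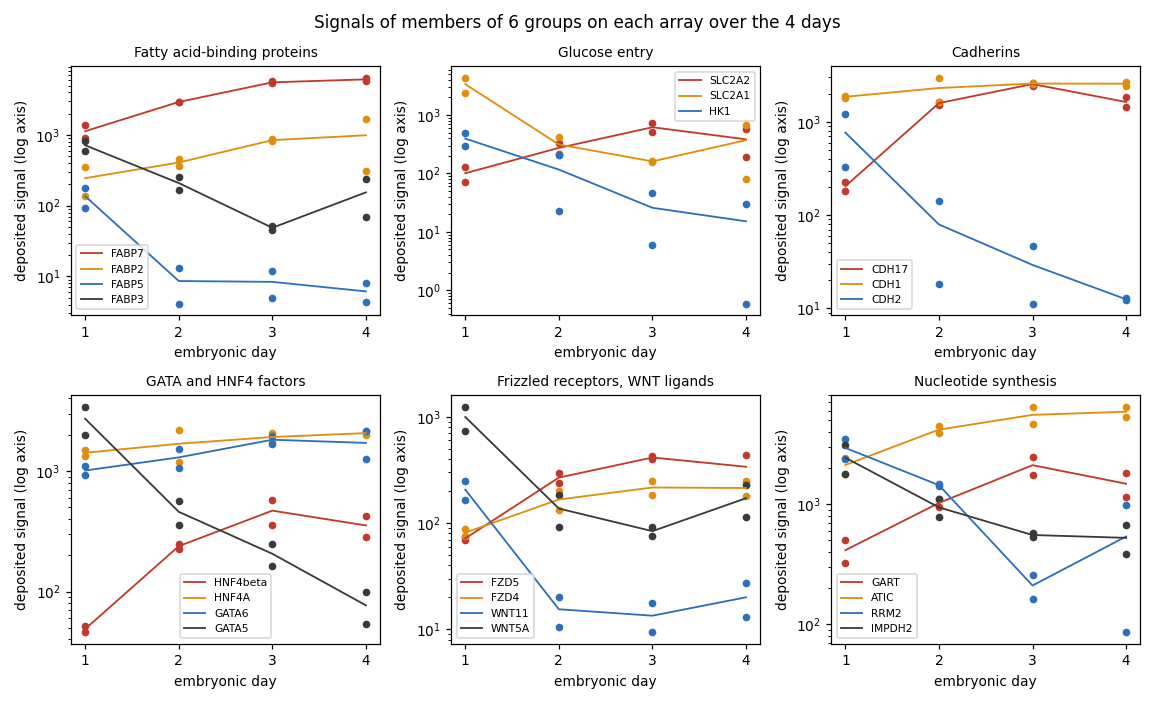
Deposited signal (log axis) by embryonic day for members of 6 groups, with 2 points per day for the 2 arrays and lines through their means. On day 4 FABP7, SLC2A2, CDH17, HNF4beta, FZD5 and GART lie above their own day 1 signals on both arrays, while FABP5, SLC2A1, CDH2, GATA5, WNT11 and IMPDH2 lie below theirs.

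Conjugating enzymes of detoxification mostly rose. Of 22 measured glutathione, glucuronosyl and sulfo transferases 15 rose and 2 fell (12 and 2 as deposited), with a median of 1.46 (0.94 as deposited). SULT1C3, for a sulfotransferase, read 5121 and 4084 on the day 4 arrays, against 1133 and 1238 on the day 1 arrays, and SULT1B read 797 and 750.2 on the day 4 arrays, against 82.7 and 114 on the day 1 arrays. GSTA2, for a glutathione transferase, read 4605 and 4247 on the day 4 arrays, against 1560.1 and 2932 on the day 1 arrays. In all 3 genes the days did not overlap, and the rises were 2.37, 3.52 and 1.40. GSTO2 (-2.06) and GSTA4 (-1.03) were the falls, named after their values were seen.

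Of 27 cytochrome P450 genes 8 rose and 2 fell (5 and 4 as deposited). CYP2C18, the brightest, read 2954 and 3039 on the day 4 arrays, against 190.4 and 241 on the day 1 arrays, a rise of 4.33 ± 0.18 (adjusted p = 1.8e-05), and CYP24A1, which inactivates vitamin D, read 538 and 374 on the day 4 arrays, against 127 and 177 on the day 1 arrays. CYP3A5 shows how far the day 4 pools could differ, with 2679 and 175 on the day 4 arrays, against 282 and 364 on the day 1 arrays, and it did not pass (adjusted p = 0.2). The P450 list held 5, 8, 5 and 5 rises in the fits without 1 array. ALDH1A2, the main maker of retinoic acid in the early embryo, and CYP26B1, which degrades it, both fell, ALDH1A2 by 2.80, both chosen after their values were seen. Of 16 alcohol and aldehyde dehydrogenases 7 rose and 2 fell (4 and 3 as deposited), with ALDH2 at 3542 and 3458 on the day 4 arrays, against 1685 and 2413 on the day 1 arrays. Among 29 metallothioneins and redox enzymes 6 rose and 3 fell (3 and 9 as deposited). SOD3, for the secreted superoxide dismutase, read 1433 and 965 on the day 4 arrays, against 111 and 225 on the day 1 arrays, while PRDX1 fell, with 1558 and 2404 on the day 4 arrays, against 5486 and 7983 on the day 1 arrays. In the fits without 1 array the dehydrogenases had 4, 7, 4 and 4 rises and the redox list 3, 5, 3 and 3 rises.

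Brush border genes, for apical peptidases and structural proteins of absorptive epithelia, had more rises than falls. Of 16 measured, 8 rose and 1 fell (6 and 2 as deposited). DPP4, a peptidase of gut and kidney brush borders, read 3209.9 and 2697 on the day 4 arrays, against 647 and 766 on the day 1 arrays, and ACE, for angiotensin-converting enzyme, read 1572 and 1405 on the day 4 arrays, against 317 and 316 on the day 1 arrays. USH1C, for a scaffold of microvillus links, read 649 and 653 on the day 4 arrays, against 72.2 and 99.6 on the day 1 arrays. MME, for neprilysin, also an apical peptidase, was the fall, at 27.7 and 11.8 on the day 4 arrays, against 399 and 536 on the day 1 arrays. LAP3, an aminopeptidase, was lower only as deposited (adjusted p = 0.31 after quantile normalization). The first 3 genes were separated upward and MME downward on all arrays.

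Among 201 measured genes in a list of solute carriers other than SLC25, 46 rose and 23 fell (27 and 45 as deposited). After quantile normalization these shares, 22.9% and 11.4%, stood against 13% and 16.4% over all genes. As deposited, 4.61% of all genes were higher and 33.8% lower. The median was 0.26 (-0.31 as deposited), against -0.06 (-0.66 as deposited) over all genes. SLC26A3, for a chloride-bicarbonate exchanger of the gut, read 560.2 and 251 on the day 4 arrays, against 8.46 and 14.5 on the day 1 arrays. SLC19A3, for a thiamine transporter, read 514 and 267 on the day 4 arrays, against 31.1 and 68.2 on the day 1 arrays, and SLC31A1, the copper transporter, read 2877 and 2837 on the day 4 arrays, against 1372 and 1813 on the day 1 arrays. Those 3 rose, by 4.33, 3.31 and 1.30. Chosen after their values were seen, SLC40A1, for the iron exporter ferroportin, rose by 1.78, and SLC6A19 and SLC3A1, of neutral and dibasic amino acid uptake, rose by 1.69 and 1.91. SLC16A3, for a lactate carrier, and SLC7A3, for a cationic amino acid carrier, fell by 3.55 and 2.46, also chosen after their values were seen. Leaving out 1 array gave 24, 49, 30 and 22 rises and 10, 23, 8 and 10 falls.

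In the SLC25 carriers of mitochondria 4 of 32 rose and 3 fell (4 and 8 as deposited). After quantile normalization these shares, 12.5% and 9.38%, lay below the 13% and 16.4% over all genes. SLC25A1, the citrate carrier, read 3269 and 2825 on the day 4 arrays, against 826 and 1150.2 on the day 1 arrays. SLC25A15, the ornithine carrier that serves the urea cycle, read 355 and 213 on the day 4 arrays, against 92.2 and 151 on the day 1 arrays. SLC25A20, which carries acylcarnitines for oxidation, read 3185 and 2923 on the day 4 arrays, against 1445 and 1864 on the day 1 arrays. These 3 rose, as did SLC25A30 (2.05). Of 28 ABC transporters 4 rose and 4 fell (0 and 7 as deposited), each 14.3% after quantile normalization, near the shares over all genes. ABCB11, for the bile salt export pump, rose by 1.56 and ABCG2 by 1.48, after quantile normalization only, while ABCC4 and ABCE1 fell by 1.79 and 1.49. The fits without 1 array had 2, 3, 3 and 2 rises and 3, 3, 3 and 3 falls. Of 7 aquaporins, AQP8 (3.32) rose on both scales and AQP5 (1.61) and AQP11 (0.88) after quantile normalization only. AQP1, AQP3, AQP7 and AQP12A did not pass.

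Adhesion molecules also ran both ways. CDH17, for the liver-intestine cadherin, read 1831 and 1435 on the day 4 arrays, against 183 and 225 on the day 1 arrays, and CDH2, for N-cadherin, read 12.8 and 12.3 on the day 4 arrays, against 329.5 and 1204 on the day 1 arrays. The first rose by 3.60 ± 0.20 (adjusted p = 6.3e-05) and the second changed by -3.98 ± 0.67 (adjusted p = 0.0052), while CDH1, for E-cadherin, read 2701 and 2429 on the day 4 arrays, against 1906 and 1809 on the day 1 arrays, and did not pass (adjusted p = 0.075). PCDH17 also fell (-2.68), so that 1 of 24 cadherins and protocadherins rose and 2 fell (1 and 5 as deposited). After quantile normalization these shares, 4.17% and 8.33%, lay below the 13% and 16.4% over all genes. Of 11 claudins 2 rose, CLDN3 (1.62) and CLDN2 (1.48), but none as deposited, where 1 fell, and none without day 4 replicate 1 or either day 1 array. Of 18 genes in the integrin list, which also held the integrin-named enzyme gene ITGB1BP3, 4 rose and 2 fell, against 0 and 5 as deposited, and none was called without day 4 replicate 1 or day 1 replicate 2. ITGA4, a fibronectin and VCAM1 receptor of mesenchyme and blood cells, fell, with 27.3 and 86.6 on the day 4 arrays, against 389 and 567 on the day 1 arrays. The other fall was the enzyme gene ITGB1BP3, at -0.44 (adjusted p = 0.04).

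The basement membrane showed single rises. Of 7 laminins LAMB2 rose on both scales (2.03), with signals of 74.7 and 47.7 on the day 4 arrays, against 3.83 and 20.7 on the day 1 arrays, and LAMA2 (1.57) after quantile normalization only, whereas LAMA5 read 8.03 and 40.6 on the day 4 arrays, against 791 and 938 on the day 1 arrays, and fell only as deposited (adjusted p = 0.054 after quantile normalization). The SE of LAMA5, 1.29, also takes in its day 2 arrays, which read 888 and 19.7. LAMA1, LAMB1, LAMB4 and LAMC1 did not pass. Of 34 collagens 3 rose and 2 fell, against 1 and 6 as deposited, with 2, 5, 1 and 1 rises and 0, 0, 0 and 0 falls in the fits without 1 array. After quantile normalization the shares of rises and falls, 8.82% and 5.88%, lay below the 13% and 16.4% over all genes. COL6A1 rose (2.20) and COL2A1 fell (-2.44). COL1A2 read 45.2 and 9.38 on the day 4 arrays, against 815 and 1603 on the day 1 arrays, and fell only as deposited. After quantile normalization it changed by -4.29 (adjusted p = 0.15), and its SE, 1.97, also takes in day 2 arrays of 2671 and 17.6. COL18A1, a basement membrane collagen, was the brightest at 4952 and 3856 on the day 4 arrays, against 2562 and 3431 on the day 1 arrays. It passed after quantile normalization only.

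Lysosomal and respiratory genes had few calls that held on both scales. Of 12 cathepsins, the lysosomal proteases, 6 rose and 1 fell, but 1 rose and 2 fell as deposited, with 2, 3, 2 and 2 rises in the fits without 1 array. After quantile normalization the cathepsin shares of rises and falls, 50% and 8.33%, stood against 13% and 16.4% over all genes. The cathepsin median was 0.63 (0.36 as deposited), against -0.06 (-0.66 as deposited) over all genes. CTSA read 2880.3 and 2960.1 on the day 4 arrays, against 1391 and 1734 on the day 1 arrays. CTSV stayed among the brightest genes of both days at 9269.8 and 8978 on the day 4 arrays, against 8598 and 11077 on the day 1 arrays. Of 19 genes of the vacuolar proton pump 1 rose and 1 fell (1 and 6 as deposited), with 0, 1, 0 and 0 rises and 0, 1, 3 and 0 falls in the fits without 1 array, and none rose on both scales. Of 33 subunits of respiratory complex I, 1 rose (NDUFB2, at 0.50, not called as deposited) and 0 fell, with 0 rises and 5 falls as deposited and no call in any fit without 1 array. Of 29 subunits of complexes III, IV and ATP synthase 0 rose and 1 fell (COX7C, at -0.56), with 0 and 1 as deposited and 0, 1, 0 and 0 falls in the fits without 1 array. The medians of both respiratory lists, -0.04 and -0.16, lay close to that of all genes.

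Mitochondrial ribosomal proteins and ER genes had more falls than rises, as did all genes. After quantile normalization falls made up 27.7% of the first list and 21.2% of the second, against 16.4% over all genes. Rises made up 1.54% and 1.92%, against 13%. Of 65 mitochondrial ribosomal proteins 18 fell and 1 rose (39 and 1 as deposited), with a median of -0.47 (-1.05 as deposited), and 7, 17, 5 and 6 falls in the fits without 1 array. MRPS22 read 253 and 306 on the day 4 arrays, against 995 and 1532 on the day 1 arrays, and MRPS16, the single rise, read 556 and 554 on the day 4 arrays, against 142 and 183 on the day 1 arrays. Among 52 genes of ER translocation, folding and export 11 fell and 1 rose (27 and 0 as deposited). HSPA5 and HSP90B1, the main ER chaperones, changed by -0.82 and -0.80, and the fits without 1 array had 4, 6, 5 and 3 falls. Of 52 genes in the RAB list, which also held genes for RAB-interacting proteins, 7 rose and 4 fell, against 1 and 13 as deposited. After quantile normalization the share of rises was near that over all genes, and the share of falls was below that over all genes. RAB20 read 1062 and 1500.2 on the day 4 arrays, against 581 and 713 on the day 1 arrays, and the fits without 1 array had 3, 5, 4 and 2 rises.

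Lists of the machinery that makes, folds and degrades proteins and processes RNA held more falls than rises after quantile normalization, as did all genes. Of 62 cytosolic ribosomal proteins 4 fell and 1 rose (1 and 1 as deposited), with a median of -0.15 (-0.29 as deposited). The share of falls among them, 6.45%, was below the 16.4% over all genes. Their signals were near the top of the range, where probes saturate. RPS27L, a relative of RPS27, was the rise, at 1.76, and without day 4 replicate 1 or either day 1 array none of the falls was called. Of 37 proteasome subunits and assembly factors 23 fell and 1 rose (30 and 0 as deposited), with a median of -0.77 (-1.23 as deposited). PSMA3, of the core, read 733 and 1029 on the day 4 arrays, against 2774 and 4273 on the day 1 arrays, and PSMD14, the deubiquitinase of the lid, read 439.5 and 626 on the day 4 arrays, against 1699.8 and 2631 on the day 1 arrays. Both genes were lower on both day 4 arrays than on either day 1 array, with changes of -1.55 for PSMA3 and -1.38 for PSMD14.

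The list of the CCT chaperonin and heat shock proteins, which also held chaperones of the ER and of mitochondria, had more falls than rises. Of 63 measured genes 27 fell and 1 rose (39 and 0 as deposited). CCT4 read 757 and 1084 on the day 4 arrays, against 4006 and 5837 on the day 1 arrays, a change of -2.05 ± 0.17 (adjusted p = 0.00026), and CCT3 read 138 and 154 on the day 4 arrays, against 895 and 1304 on the day 1 arrays. Counted after their values were seen, TCP1, CCT2, CCT3, CCT4, CCT5, CCT6A, CCT7 and CCT8, the subunits of the ring that folds actin and tubulin, all fell, by 1.10 for CCT8 to 2.07 for CCT3. In the fits without 1 array the chaperone list had 16, 24, 16 and 11 falls and the proteasome list 10, 19, 11 and 11 falls.

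Lists of RNA processing and transport had more falls than rises as well. Of 60 splicing and hnRNP genes 31 fell and 2 rose (49 and 0 as deposited, median -0.77 and -1.31). SNRPA1, of the U2 particle, read 153 and 195 on the day 4 arrays, against 1377 and 1604 on the day 1 arrays. Of 23 nuclear pore genes 13 fell and 0 rose (18 and 0 as deposited), NUP155 with 146 and 208 on the day 4 arrays, against 787 and 1511 on the day 1 arrays. Of 15 RNA polymerase subunits 9 fell and 0 rose, and all 15 fell as deposited. POLR1A, the large subunit of the polymerase that transcribes ribosomal RNA, read 80.2 and 139 on the day 4 arrays, against 577 and 697 on the day 1 arrays. Of 52 translation factors 19 fell, EIF2S1 at -2.03 among them, and 1 rose (26 and 0 as deposited). Of 29 aminoacyl-tRNA synthetases 10 fell and 0 rose (22 and 0 as deposited). Of 9 histone genes 1 fell, H2AFZ (-2.18), a variant of H2A, against 5 as deposited, and the fits without 1 array had 1, 4, 1 and 0 falls. With 1 array left out there were 12, 32, 16 and 8 falls for splicing, 2, 12, 4 and 2 falls for the nuclear pore and 3, 9, 3 and 4 falls for RNA polymerases. They had 7, 16, 8 and 5 falls for translation factors and 3, 8, 2 and 3 falls for the synthetases.

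Genes of mitosis, the centromere and DNA replication had the 3 lowest medians of the 64 lists of functions and families. Of 39 genes of mitosis and chromosome segregation 31 fell and 0 rose (35 and 0 as deposited), with a median of -1.99 (-2.65 as deposited). AURKB, for a kinase of chromosome segregation, read 57.2 and 316 on the day 4 arrays, against 1915 and 2916 on the day 1 arrays, and CDK1, which drives entry into mitosis, read 129 and 715 on the day 4 arrays, against 2166 and 3291 on the day 1 arrays. NUF2, of the kinetochore, read 58.6 and 33 on the day 4 arrays, against 618 and 1137 on the day 1 arrays. All 3 were lower on both day 4 arrays than on either day 1 array, with changes of -3.37 for AURKB, -2.52 for CDK1 and -3.11 for NUF2. Centromere proteins had 12 falls and 0 rises among 19 (median -1.41), and 17 and 0 as deposited. DNA replication had 25 and 0 among 42 (median -1.13), and 34 and 0 as deposited. PCNA, the sliding clamp of DNA polymerases, read 215 and 702 on the day 4 arrays, against 1932 and 4508 on the day 1 arrays, and ORC2, of the origin recognition complex, read 4.88 and 18.4 on the day 4 arrays, against 196 and 307 on the day 1 arrays. In recombination and Fanconi repair 12 of 28 fell and 0 rose (21 and 0 as deposited), BRCA1 by 2.42.

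The day 4 pools differed in these genes. Of the 39 mitosis genes 36 were higher on day 4 replicate 2 than on replicate 1, as were 39 of the 42 replication genes and 36 of 37 proteasome genes, against 61.4% of all genes, 5 of 16 carriers and 4 of 24 coagulation genes. Between the day 1 pools, replicate 2 was the higher in 37 of the 39 mitosis genes and all 42 replication genes, against 92.6% of all genes. The median signal of the mitosis genes was 45.9 and 154 on the day 4 arrays, against 527 and 962 on the day 1 arrays. The fits without 1 array had 17, 32, 16 and 6 falls in mitosis, 7, 25, 6 and 4 falls in replication, 4, 15, 2 and 2 falls in the centromere and 3, 12, 4 and 0 falls in repair. Kinesins had more falls than rises, as did all genes. Of 28 kinesins 10 fell and 3 rose (12 and 1 as deposited). After quantile normalization these shares, 35.7% and 10.7%, stood against 16.4% and 13% over all genes. KIF9, which rose, read 121 and 66.7 on the day 4 arrays, against 16.4 and 27.9 on the day 1 arrays. Leaving out 1 array gave 3, 9, 4 and 0 falls of kinesins.

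**Figure D3:**
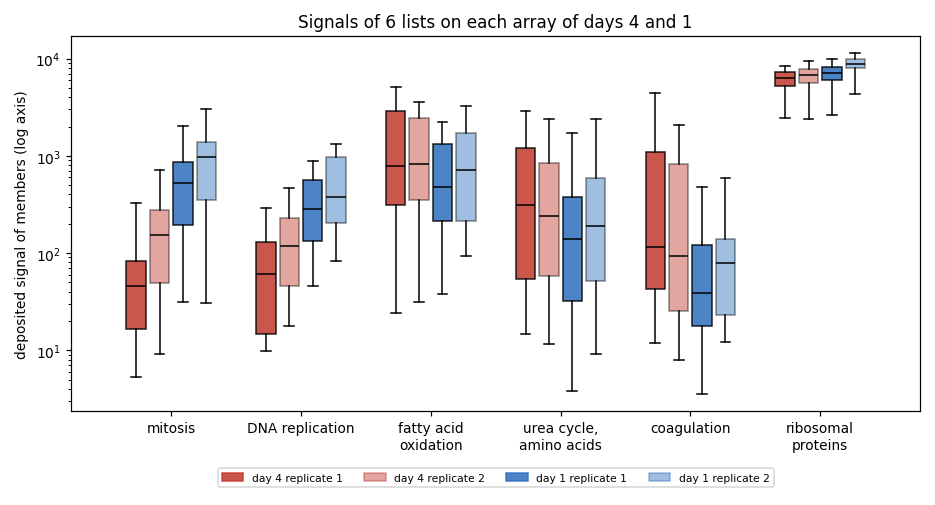
Deposited signal (log axis) of the measured members of 6 lists on each array, day 4 (red) left of day 1 (blue), with boxes from the lower to the upper quartile, a line at the median and whiskers to the 5th and 95th percentiles. Mitosis genes have medians of 45.9 and 154 on the day 4 arrays, against 527 and 962 on the day 1 arrays, while ribosomal proteins stay between 6270 and 8860.

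Among regulators, transcription factors of endoderm and liver had more rises than falls after quantile normalization. Rises made up 40.9% of the list and falls 13.6%, against 13% and 16.4% over all genes. As deposited, 4.61% of all genes were higher and 33.8% lower. Of 22 measured factors 9 rose and 3 fell (4 and 6 as deposited), with 4, 6, 4 and 2 rises in the fits without 1 array. HNF4beta, a relative of HNF4A, read 422 and 284 on the day 4 arrays, against 45.7 and 52 on the day 1 arrays, a rise of 3.16 ± 0.33 (adjusted p = 0.00075), and CREB3L3, a liver and gut factor of lipid metabolism, read 983 and 1438 on the day 4 arrays, against 531 and 655 on the day 1 arrays. HNF4A itself, at 1979 and 2147 on the day 4 arrays, against 1338 and 1495 on the day 1 arrays, passed after quantile normalization only. GATA5 fell, with 54.1 and 99.3 on the day 4 arrays, against 2002 and 3426 on the day 1 arrays, whereas its relative GATA6, chosen after its values were seen, was at 1.28 and passed after quantile normalization only. GATA4 and FOXA2 did not pass on either scale. SOX17, an early endoderm factor, read 40.8 and 822 on the day 4 arrays, against 1347 and 1869 on the day 1 arrays, so its day 4 pools lay far apart, and it fell only as deposited.

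Nuclear receptors leaned upward after quantile normalization, with 9 of 28 higher and 2 lower (2 and 5 as deposited). After quantile normalization these shares, 32.1% and 7.14%, stood against 13% and 16.4% over all genes. Their median was 0.35 (-0.32 as deposited), against -0.06 (-0.66 as deposited) over all genes. With 1 array left out there were 3, 3, 2 and 2 rises. NR3C2, the mineralocorticoid receptor, read 658 and 401 on the day 4 arrays, against 109 and 176 on the day 1 arrays, and RXRG read 264 and 253 on the day 4 arrays, against 82.6 and 111 on the day 1 arrays. NR6A1, a receptor of germ cells and early embryos, fell, with 729 and 1535 on the day 4 arrays, against 3025 and 3764 on the day 1 arrays. PPARA, of the fasting response in liver, was at 1.52 and passed after quantile normalization only.

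Falls outnumbered rises among the HOX genes. Of 18 measured HOX genes 6 fell and 0 rose (9 and 0 as deposited), with 2, 3, 2 and 1 falls in the fits without 1 array. HOXB1 read 8.88 and 1.59 on the day 4 arrays, against 166 and 360.4 on the day 1 arrays, and HOXB5 read 1.24 and 0.856 on the day 4 arrays, against 149.5 and 251 on the day 1 arrays, below the filter signal on both day 4 arrays. TBXT, for Brachyury, read 4.45 and 10.9 on the day 4 arrays, against 124 and 712 on the day 1 arrays, and was the fall among 6 measured genes (3 as deposited) in the T-box list, which also held the thromboxane synthase gene TBXAS1. Of 11 SOX genes SOX5 (2.47) rose, SOX8 and SOX9 passed after quantile normalization only, and 4 fell (1 rise and 5 falls as deposited), among them SOX7 (-3.38), of endothelium and endoderm, and SOX3 (-2.61), of neural ectoderm. The fits without 1 array had 0, 3, 1 and 0 falls of SOX genes. Of 18 forkhead genes 4 rose and 2 fell, against 0 and 6 as deposited, with 3, 3, 3 and 1 rises and 0, 3, 1 and 0 falls in the fits without 1 array. FOXO1, of the insulin response, was at 1.66 after quantile normalization. Of 65 ZNF genes 4 rose and 10 fell (0 and 21 as deposited), a share of falls near that over all genes, and 1, 6, 2 and 0 falls in the fits without 1 array.

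Among signalling genes WNT and BMP family members fell more often than they rose, as did all genes. Falls made up 29.6% of the WNT list and 23.1% of the BMP group, against 16.4% over all genes. Of 27 WNT ligands, receptors and antagonists 4 rose and 8 fell (2 and 13 as deposited). Of FZD5 and FZD4, for receptors, FZD5 read 433 and 245 on the day 4 arrays, against 69.9 and 73.6 on the day 1 arrays, and FZD4 read 248 and 180.1 on the day 4 arrays, against 75 and 87.6 on the day 1 arrays. These rose by 2.69 and 1.98. Of WNT11 and WNT5A, ligands of gastrulation movements, WNT11 read 13 and 27 on the day 4 arrays, against 165 and 248 on the day 1 arrays, and WNT5A read 228 and 115 on the day 4 arrays, against 743 and 1249 on the day 1 arrays. The antagonist SFRP2 fell by 3.37, while FRZB, a related antagonist, was bright at 1979.9 and 1826 on the day 4 arrays, against 747 and 1487 on the day 1 arrays, and passed after quantile normalization only. Of 26 genes of the BMP, GDF, activin and Nodal group 6 fell and 0 rose (10 and 0 as deposited). Leaving out 1 array gave 4, 6, 6 and 1 falls of this group and 4, 7, 5 and 2 falls of WNT genes. BMP2 and BMP7 changed by -2.31 and -2.53, and BMP5 read 0.413 and 1.24 on the day 4 arrays, against 69.1 and 177 on the day 1 arrays.

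Of the FGF receptors, FGFR2 fell, with 152 and 54.5 on the day 4 arrays, against 794 and 927 on the day 1 arrays. FGFR3 stayed bright at 2547 and 2716 on the day 4 arrays, against 2159 and 2629 on the day 1 arrays (adjusted p = 0.059). The FGF list, which also held the centrosome gene FGFR1OP, had 2 falls, FGFR2 and FGFR1OP itself, and 0 rises among 13 (5 and 0 as deposited). That share of falls, 15.4%, was near the 16.4% over all genes. The fits without 1 array had 2, 1, 1 and 0 falls of FGF genes. INSR, the insulin receptor, read 317 and 329.7 on the day 4 arrays, against 136 and 158 on the day 1 arrays, a rise of 1.86, and IGFALS, which carries insulin-like growth factors in plasma, rose by 2.43. IRS2, an insulin receptor substrate, fell by 1.66. Their list had 3 rises and 3 falls among 17 (2 and 5 as deposited). Of 13 chemokines and receptors CXCL12 (-5.06) and CXCL14 (-1.97) fell and CXCL13L3 (1.21) was higher after quantile normalization only (0 higher and 3 lower as deposited). Neither fall was called without day 4 replicate 1 or either day 1 array. Of 16 pluripotency and germ cell genes 3 rose and 6 fell (1 and 10 as deposited). LIN28A, which blocks let-7 maturation, read 68.2 and 131 on the day 4 arrays, against 516 and 1305 on the day 1 arrays, PIWIL1, of the germline, read 9.71 and 18.7 on the day 4 arrays, against 140.1 and 281 on the day 1 arrays, and EPCAM, an epithelial adhesion molecule, rose, with 5757 and 7098 on the day 4 arrays, against 2883 and 4594 on the day 1 arrays. With 1 array left out there were 3, 7, 6 and 3 falls in this list.

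**Figure D4:**
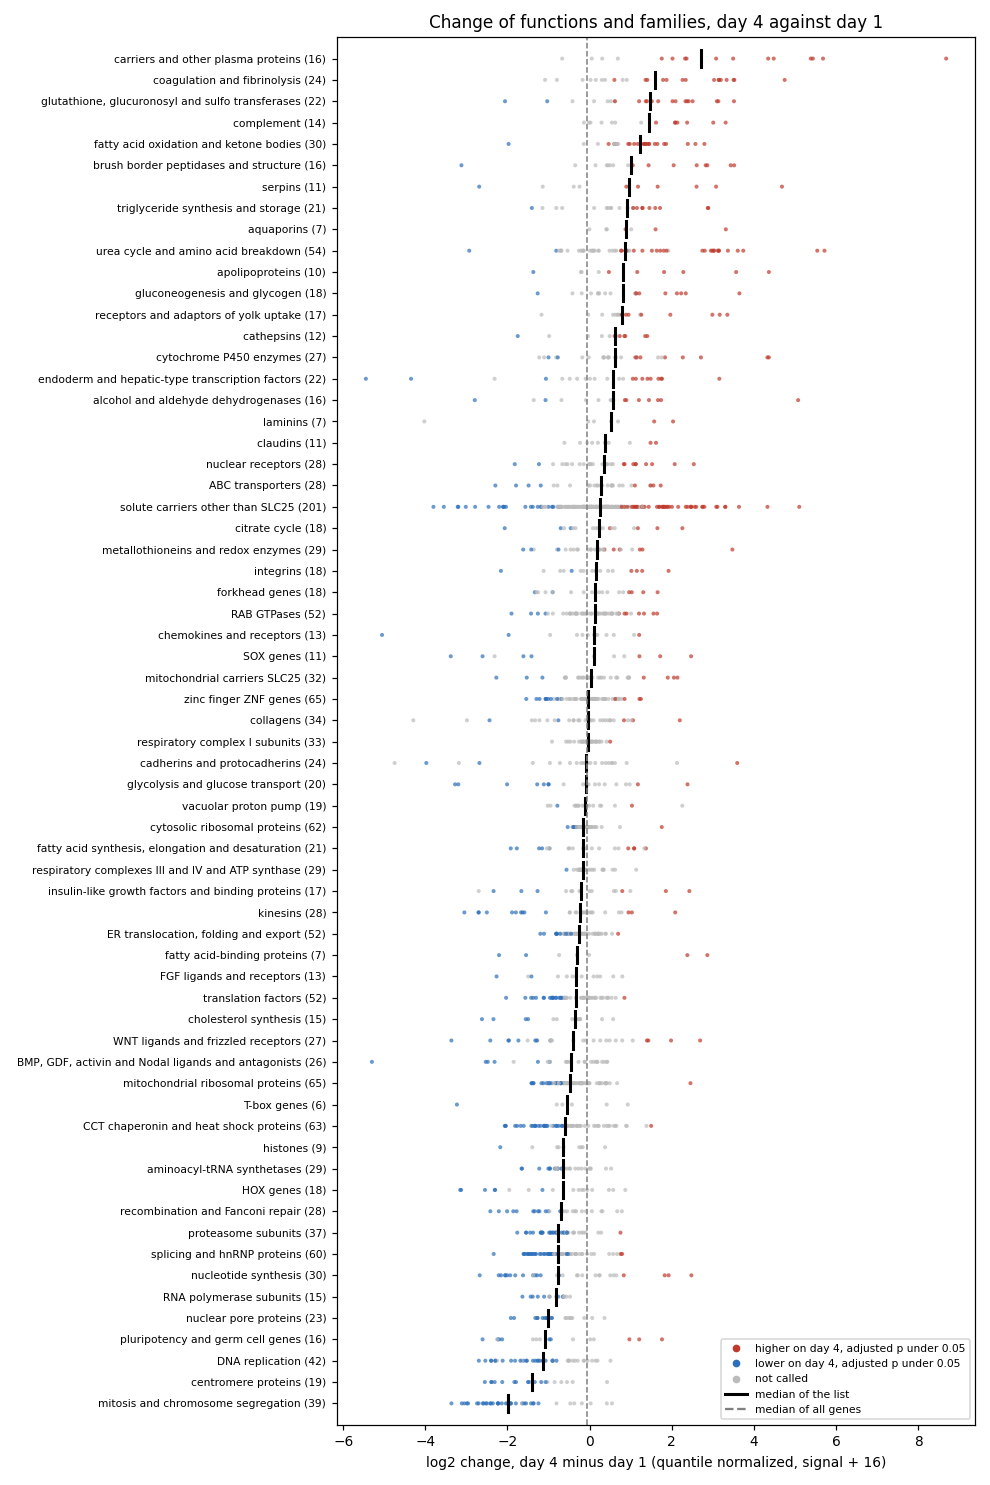
Log2 change, day 4 minus day 1, after quantile normalization, of every measured gene in 64 lists, with red for genes called higher, blue for genes called lower, grey for the rest, a black bar at the median of each list and a dashed line at -0.06, the median of all genes. The number of measured genes stands in parentheses. Carriers and other plasma proteins stand at the top with a median of 2.72 and mitosis at the bottom with -1.99.

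Ribosomal proteins were among the brightest genes of both days. RPS20, for a ribosomal protein, had the highest signal on all 4 arrays, at 11426 and 12448 on day 4, against 12302 and 13740 on day 1. Of the 25 brightest genes of day 4, 13 were also among the 25 brightest of day 1, which is 52.0% of each list, while the day 4 arrays shared 18 of 25 with each other and the day 1 arrays 20. Among the 100 brightest, 75 were shared between the days, against 84 between the day 4 arrays and 92 between the day 1 arrays. Signals of different probe sets also differ by probe affinity and saturate near the top, so ranks describe signals and not amounts of RNA.

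Behind RPS20 on day 4 stood genes of lipid, iron and retinol handling and a liver protein. RGN, for regucalcin, a calcium-binding protein of liver, ranked 2 on both day 4 arrays, against 58 and 41 on day 1. NPC2, for the lysosomal protein that binds cholesterol, ranked 7 and 3 on day 4, against 99 and 82 on day 1. APOA2 ranked 4 and 6, against 190 and 231, and TF ranked 9 and 5, against 346 and 422. RBP4A, a retinol-binding protein gene, ranked 8 and 4, against 51 and 30. FBP1, of gluconeogenesis, and SELENOP1, for a selenium carrier, also entered the 25, FBP1 at 15 and 37, against 580 and 692 on day 1, and SELENOP1 at 13 and 47, against 362 and 507. All of these ranked nearer the top on both day 4 arrays than on either day 1 array.

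Day 1 was headed by ribosomal proteins and the cytoskeleton. RPL9 ranked 44 and 34 on day 4, against 2 on both day 1 arrays. ACTB, for cytoplasmic actin, ranked 188 and 22 on day 4, against 3 and 7 on day 1, so the day 4 pools stood apart. Ribosomal proteins made up 42 of the 100 brightest genes on day 4, against 51 on day 1. HSPE1, a mitochondrial chaperonin, ranked 35 and 25, against 12 and 5. TTR, APOA1 and the lysosomal protease CTSV were among the 25 brightest of both days.

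The largest climbs into the 100 brightest genes of day 4 came from far down, with ranks counted over all probe sets, several of which can share a gene. AFP stood at rank 35 by mean signal on day 4, and its day 1 signals lay below the filter signal, where ranks carry no order. RBP stood at 61, against 4147, and SERPIND1 at 127, against 5500. BBOX1, for the last enzyme of carnitine synthesis, stood at 90, against 1473, FABP7 at 115, against 1619, and ASS1 at 125, against 2113. PTMA, for prothymosin alpha, a chromatin protein of dividing cells, made the reverse move, at 1227 on day 4, against 111 on day 1.

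**Figure D5:**
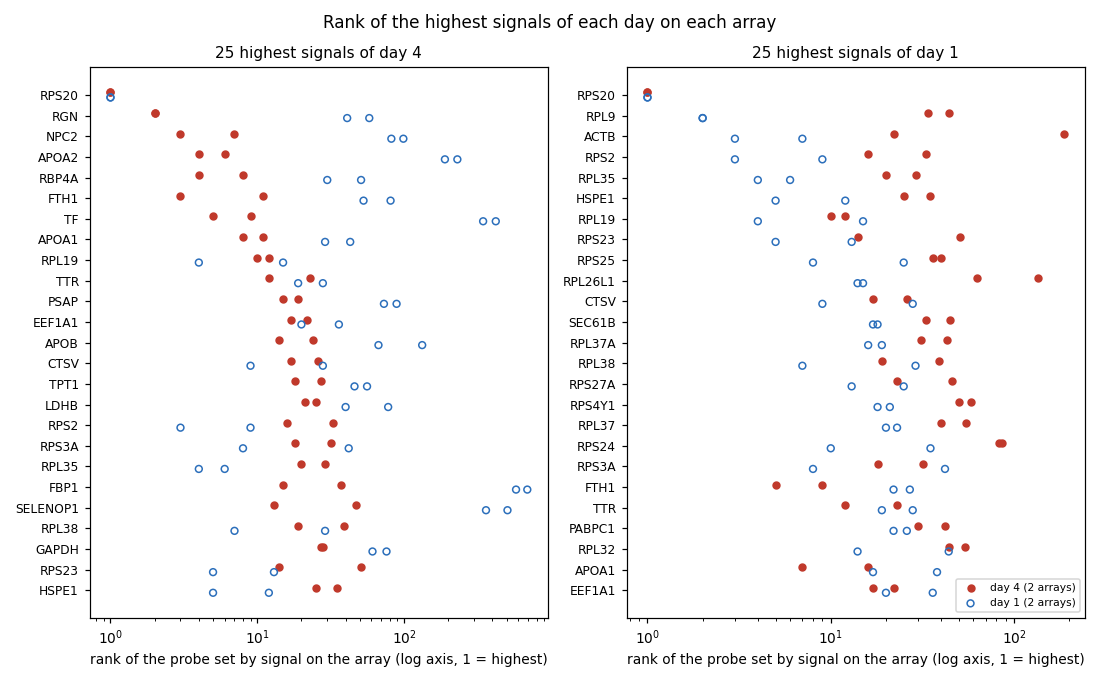
Rank by deposited signal (log axis, 1 is the highest) on each array of the 25 brightest genes of day 4 (left) and of day 1 (right), with filled red circles for day 4 and open blue circles for day 1. TF, FBP1 and SELENOP1 lie to the right on both day 1 arrays in the day 4 panel, and the ACTB points of day 4 lie far apart in the day 1 panel.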

How the data were processed

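Labelled total RNA from 8 pooled endoderm samples was hybridised to Affymetrix Chicken Genome Arrays. The deposited values are linear probe set intensities (signals), which the authors made with MAS5, per the submitters' processing notes, and their software version is not given in the sources used here. Probe sets were named from the platform annotation: of 38439 non-control probe sets, 27168 carried 1 gene symbol, 177 several and 11094 none. Signals were taken as log2(signal + 16) after quantile normalization, and also as deposited. Probe sets at or below the 40th percentile of mean signal (9.96) were left out. All 8 arrays were fitted with limma 3.58.1 (R 4.3.3), with a day term and a mean-variance trend, and day 4 minus day 1 was tested with Benjamini-Hochberg adjustment over 23063 probe sets. The test was checked on simulated data with 200 of the 23063 probe sets changed in day 4 against day 1. It found 93.6% of rises of log2 2 and 14.4% of rises of log2 1, and 8.2% of its calls were false. The simulated arrays held only independent noise, and far fewer probe sets changed than were called in the data. These rates may therefore not hold for this comparison. The probe set with the highest mean signal stood for a gene.

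The groups compared and the gene lists were chosen with earlier results of these data known. The named genes were the 20 largest rises and falls called on both scales without overlap, the 25 brightest genes of each day, for each list up to 4 called members by adjusted p and up to 4 by signal, and every member of lists of 10 or fewer. Lists drawn by symbol prefix held some genes of other families. The alternatives were other pseudocounts, filters, scalings, fits and leaving out each array. Promoter motifs were not analysed here. Gene names and roles follow the annotation, and with 2 pools a day the number of arrays limits the precision.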

Additional observations from a re-analysis of the deposited data

How the results depend on the processing

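The counts of calls, 2446 higher and 2833 lower probe sets, depended most on the scaling and on single arrays. On the deposited scale they were 790 and 6344. Shifting each array to one median gave 3124 and 2599, so rises made up 54.6% of calls, against 46.3% after quantile normalization and 11.1% as deposited. Leaving out 1 array gave 846 to 2251 rises and 668 to 2453 falls after quantile normalization, both lowest without day 1 replicate 2. On the deposited scale, a setting added after the data were seen, the same gave 572 rises and 9692 falls without day 1 replicate 1, 563 and 1198 without day 1 replicate 2, 354 and 2004 without day 4 replicate 1, and 669 and 4372 without day 4 replicate 2. A pseudocount of 1 gave 2438 and 2493, one of 64 gave 2303 and 2917, no filter 1935 and 2235, no trend 2410 and 2761, and array weights 2507 and 2900. In these settings, 0 probe sets were called in the opposite direction. The labels do not say that replicate numbers pair the samples. Correlations of same-numbered deviations were 0.0454 between days 1 and 4 (0.104 as deposited), 0.38 between days 2 and 3 (0.385 as deposited) and -0.114 to -0.0136 between the other pairs of days. Replicates 1 and 2 thus differed partly in the same way on days 2 and 3, which also enter the spread behind each p-value. The main fit did not treat the numbers as pairs, and a fit with the replicate number as a block called 2251 and 2609. Of 4791 genes with several probe sets, 12 had probe sets called in opposite directions, among them RPL24, KIF20A and ENTPD1. With 2 simulated arrays a day and 200 changed probe sets, 14.4% of rises of log2 1 and 93.6% of log2 2 were found. Far more probe sets were called in the data, so these rates may not hold there. The planned search of promoters for motifs was not run.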

Other observations

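Globin and blood cell genes, which lie outside the functions described above, rose in part. HBBR, HBZ and HBE, for chains of hemoglobin whose probe sets may cross-hybridise, read 5071 and 2805 for HBBR, 4939 and 2639.5 for HBZ and 4682 and 2693 for HBE on the day 4 arrays. On the day 1 arrays they read 328 and 29.7 for HBBR, 791 and 129 for HBZ and 677 and 151 for HBE. Their changes were 5.34, 3.94 and 3.96 after quantile normalization (adjusted p = 0.0036, 0.011 and 0.0062). CA2, which is used here as an erythroid marker, went the other way with 29.9 and 24.3 on the day 4 arrays, against 4555 and 3450.2 on the day 1 arrays.

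The largest rises were not all highest at the end of the course. Of the 20, 11 had a higher mean signal on day 3 than on day 4. OTC had mean signals of 1.16 on day 1, 366 on day 2, 1651 on day 3 and 852 on day 4. AFP had means of 5.24, 3770, 10333 and 8320 over the same 4 days. The difference between days 3 and 4 was not tested here.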
